A study of Mus musculus with 8 samples.

Results

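Lipid droplets are the stores of triglyceride and cholesteryl ester in a cell, and 7 genes for their coat and for the breakdown of their lipid were followed in intestinal crypt organoids. The genes were Plin2, Plin3 and Cideb, whose products sit on the droplet surface, Pnpla2, Abhd5 and Mgll, which act in lipolysis, and Hilpda, an inhibitor of the Pnpla2 lipase. They were picked by name and are 7 of the 14223 genes with a value when rows are assigned to genes by exon coordinates. By the Ensembl identifier of each row, 6 of them, all but Hilpda, are among 13706 genes with a value. The samples were 4 WT and 4 MG53-TG organoid cultures. MG53-TG mice overexpress MG53, a membrane repair protein encoded by Trim72, in the whole animal, and the WT controls were their littermates. The design of the transgene and the age of the mice are not given in the sources used here, and one passage of the study's text gives the genotypes of the organoid transcriptome as MG53;Lgr5 and Lgr5, where Lgr5 mice carry a knock-in reporter. All cultures were grown from small intestinal crypts in Matrigel with IntestiCult OGM medium and the labels name no other treatment. The labels do not say whether the replicates came from separate mice, so the p-values measure the spread between these samples only.

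A lipid droplet has a core of neutral lipid under a single layer of phospholipid, to which coat proteins bind. In enterocytes, the absorptive cells of the small intestine, dietary fat is resynthesised to triglyceride, which is either exported in chylomicrons or held for a time in cytosolic droplets. Breakdown runs in steps. Adipose triglyceride lipase, the product of Pnpla2, removes the first fatty acid with the help of its activator CGI-58, the product of Abhd5, hormone-sensitive lipase takes the next, and monoacylglycerol lipase, the product of Mgll, releases the last.

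Values are FPKM, that is, fragments per kilobase of transcript and relative to the fragments mapped, and can be compared between genes since they are given per length. The files list them per transcript event, and the FPKM of a gene is the sum over its transcription start events, or over its end events where that sum is higher on average. FPKM summed over all start events were 269837 to 273797 in the WT samples and 269094 to 284330 in the MG53-TG samples, and the number of reads behind them is unknown. Trim72 was absent from the 4 WT files and, in MG53-TG samples 1 to 4, stood at 16.4, 27.4, 31.9 and 36.5 FPKM. All 8 epithelial identity genes had a value, with a summed FPKM of 2073 to 2388 in WT and 1702 to 2203 in MG53-TG samples. Of these 8, 5 passed as lower in MG53-TG, among them Cdh1 at -0.80 and Krt18 at -1.10 on the log2 scale, and Vil1 passed as higher at 1.05, while with median-of-ratios scaling 3 passed as lower and 1 as higher. Enterocyte markers summed to 1038 to 1233 FPKM in WT and 12267 to 13622 FPKM in MG53-TG samples, and stem cell markers to 516 to 688 and 58.8 to 302 FPKM. All 14 enterocyte markers passed the test as higher and 6 of 7 stem cell markers as lower. These counts and those that follow stand beside 15.7% of all genes tested that passed as higher and 29.3% as lower. Paneth and goblet cell markers fell in 5 of 5 and 4 of 6 tested genes, enteroendocrine markers rose in 4 of 7, and the tuft cell markers were under the filter or had no entry. For organoids it names MG53;Lgr5, the study's text gives lower stem cell and absorptive markers and higher secretory ones. The enterocyte, Paneth and goblet directions here are opposite to that, and the stem cell and enteroendocrine directions are the same. Immune and mesenchyme markers summed to at most 9.24 and 5.58 FPKM in any sample. Cd68, of macrophages, passed as lower, from 6.14 to 0.935 FPKM (limma adjusted p = 0.000519). It was the only 1 of the 8 immune markers that could be tested. Adgre1, Csf1r, Itgam and Cd79a had no entry, and Ptprc, Cd3e and Lyz2 were under the filter, the last at 0.0297 FPKM in WT and 0.187 FPKM in MG53-TG. Cd68 alone therefore does not show that macrophages were present. The collagen genes Col1a2 and Col3a1 passed as higher (limma adjusted p = 0.00364 and 0.000640), but had no entry in any WT sample or in MG53-TG sample 1, so that both calls rest on WT values set to 0 and on 0.739 to 2.07 FPKM in the other 3 MG53-TG samples, sample 1 being treated as missing. The part of these cell type markers in the results on droplet genes was not tested. In bulk RNA, fewer cells of a type and less RNA per cell cannot be told apart. The MG53-TG samples fell into pairs. Across genes, which are not independent replicates, the Pearson r of log2(FPKM + 1) was 0.985 between samples 1 and 2, 0.982 between samples 3 and 4 and 0.961 to 0.971 across these pairs, whereas WT samples were at 0.982 to 0.985 with each other. Samples 1 and 2 were nearer to WT (0.939 to 0.941) than samples 3 and 4 (0.893 to 0.908). Of the 7 genes, the values of Cideb, Plin3, Pnpla2, Hilpda and, narrowly, Mgll did not overlap between the pairs, whereas those of Plin2 and Abhd5 did. The share of all genes whose values separate in this way was not computed, so this is not shown to be a trait of the 7 genes. Ces1f, Ces1d, Ces2c, Ces2e and Olfm4 also differed along the pairs, the last, a stem cell marker, with 50.1 and 57.7 FPKM in the first pair and 6.07 and 0.948 FPKM in the other. The labels give no reason for the pairs. The fold changes and ratios of the 7 genes were therefore also computed without samples 1 and 2 and without samples 3 and 4, a choice made after seeing the data. Over all genes tested, the log2 fold changes had a median of -0.17, which went up by 0.16 when samples were scaled by median of ratios.

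The coat genes rose and a lipase inhibitor fell. Cideb rose most, to 4.94 times its WT level, Plin2 rose to 3.00 times and Plin3 to 1.35 times, and these 3 passed the test with either pair of MG53-TG samples left out. Hilpda fell to 0.354 of its WT level, a call that was lost when MG53-TG samples 3 and 4 were left out together. Pnpla2 was lower by a margin that depended on the scaling of the samples, and Abhd5 and Mgll did not pass the test. With all 7 genes measured in a single fit, in which rows were assigned to genes by exon coordinates, 3 passed as higher and 2 as lower in MG53-TG (limma adjusted p up to 0.05). Across the 11013 genes of that fit, 44.5% passed, 15.7% as higher and 28.8% as lower. The values of the WT and MG53-TG samples did not overlap in 4 of the 7 genes, against 44.5% of all genes. The median log2 fold change of the 7 genes was -0.15, beside -0.16 for all genes of the fit. The 7 genes thus had no common direction, with the 3 coat genes up and the other 4 at negative log2 fold changes. Of these, that of Abhd5 turned slightly positive with median-of-ratios scaling and quantile normalization. The 7 genes are only a part of lipolysis, and Lipe, the gene of hormone-sensitive lipase, is given below with the other lipases.

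**Figure D1:**
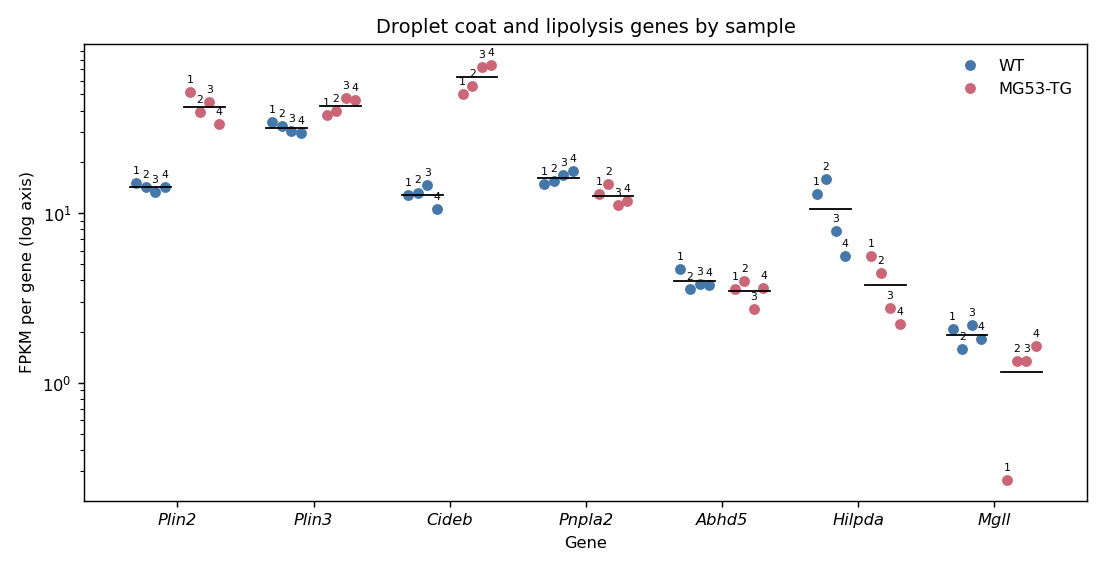
FPKM of each gene (logarithmic axis) in the 4 WT (blue) and 4 MG53-TG (red) samples. Points are samples, numbered by replicate, and black lines are group means. Plin2 and Cideb of the MG53-TG samples lie far above WT, from 33.2 and 49.9 FPKM upwards, and MG53-TG sample 1 lies at 0.267 FPKM for Mgll.

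Plin2 encodes perilipin 2, the coat protein found on droplets of most cell types, which is degraded when it is not bound to lipid. It lies on chromosome 4 from 86648386 to 86670060 on the minus strand (GRCm38). In WT samples 1 to 4 it was at 15.0, 14.2, 13.2 and 14.2 FPKM, and in MG53-TG samples 1 to 4 at 51.6, 39.3, 45.2 and 33.2 FPKM. The groups were far apart, and the WT samples were close to each other, with a mean of 14.1 ± 0.709 FPKM against 42.3 ± 7.88 FPKM (SD, n = 4 each). The log2 fold change was 1.50 with an SE of 0.14 (limma adjusted p = 5.59e-05, over all genes tested). The exact permutation test over 70 relabellings gave p = 0.0286 (two-sided), the smallest p that 4 samples against 4 allow.

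Cideb encodes a CIDE family protein that links droplets and takes part in lipoprotein assembly in liver and intestine. It lies on chromosome 14 from 55754050 to 55758458 on the minus strand. Its FPKM was 12.8, 13.2, 14.6 and 10.5 in WT samples 1 to 4 and 49.9, 55.6, 72.1 and 74.7 in MG53-TG samples 1 to 4. The lowest MG53-TG sample was therefore above the highest WT sample by a wide margin, and the group means were 12.8 ± 1.68 and 63.0 ± 12.2 FPKM (SD, n = 4 each). The log2 fold change was 2.21 with an SE of 0.16 (limma adjusted p = 1.64e-05), and the exact permutation p was 0.0286. Nop9, on the other strand, shares 1451 bases with Cideb, and the strand setting of the libraries is not given in the sources used here. The mean FPKM of Nop9 was 11.1 in WT and 8.41 in MG53-TG, a difference opposite in sign to that of Cideb.

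Plin3 encodes perilipin 3, also called TIP47, which is stable in the cytosol and moves onto nascent droplets. It lies on chromosome 17 from 56277476 to 56292873 on the minus strand. It was at 34.3, 32.4, 30.2 and 29.4 FPKM in WT samples 1 to 4 against 37.8, 39.7, 47.3 and 46.3 FPKM in MG53-TG cultures 1 to 4. The groups did not overlap, but the gap between WT sample 1 and MG53-TG sample 1 was narrow. Means were 31.6 ± 2.19 and 42.8 ± 4.72 FPKM (SD, n = 4 each), with a log2 fold change of 0.42 with an SE of 0.10 (limma adjusted p = 0.0110) and an exact permutation p of 0.0286. The log2 fold change of Plin3 was 0.56 with MG53-TG samples 1 and 2 left out and 0.29 with samples 3 and 4 left out (limma adjusted p = 0.00219 and 0.0435). The start events carried this value, since an end event of Plin3 was listed in only 3 of the 8 samples and its boundary is not annotated for Plin3.

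The promoters of the members that changed most are given as the 250 bases before the start in RefSeq (GRCm38.p6), to set the sequence beside the change. The letters searched on both strands were AGGTCA, the half-site of nuclear receptors such as PPARs, and ACGTG and GCGTG, the cores bound by hypoxia-inducible factors, of which ACGTG overlaps the E-box CACGTG. Matches are in capitals. For Plin2 the stretch is chr4:86670060-86670309, minus strand, for Hilpda chr6:29272376-29272625, plus strand, and for Cideb chr14:55758425-55758674, minus strand.
Plin2: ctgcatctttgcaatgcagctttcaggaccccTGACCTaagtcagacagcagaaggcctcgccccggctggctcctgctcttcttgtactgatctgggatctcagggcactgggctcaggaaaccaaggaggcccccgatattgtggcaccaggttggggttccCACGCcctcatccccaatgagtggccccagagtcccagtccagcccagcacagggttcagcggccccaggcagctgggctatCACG
Hilpda: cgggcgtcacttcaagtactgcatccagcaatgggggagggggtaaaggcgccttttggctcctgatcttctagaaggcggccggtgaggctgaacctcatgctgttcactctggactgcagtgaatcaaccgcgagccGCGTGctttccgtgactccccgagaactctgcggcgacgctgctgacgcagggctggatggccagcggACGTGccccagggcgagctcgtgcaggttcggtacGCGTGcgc
Cideb: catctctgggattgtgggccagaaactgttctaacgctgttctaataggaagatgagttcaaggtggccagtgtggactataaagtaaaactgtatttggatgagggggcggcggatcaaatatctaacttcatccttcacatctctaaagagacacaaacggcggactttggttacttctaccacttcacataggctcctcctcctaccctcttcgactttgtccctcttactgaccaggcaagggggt
In the Plin2 window, which goes on for 50 bases past the start, CACGTG spans bases -4 to 2 around the start and TGACCT, the half-site read on the other strand, begins at base -218. It also holds CACGC, which is GCGTG on the other strand, at base -86. Hilpda has 2 RefSeq windows, and the printed one, of the start at 29272626, holds ACGTG at base -43 and GCGTG at bases -111 and -8. The other, of the start at 29272488, holds no ACGTG and a single GCGTG, at base 28 after the start. The 2 windows overlap, and this GCGTG is the same site as that at base -111 of the printed window. The Cideb stretch holds no match before the start and CACGC at base 8 after it. Of 32851 RefSeq windows of 300 bases, 16.3% hold AGGTCA, 19.6% ACGTG, 32.4% GCGTG and 7.15% CACGTG on either strand. Of the 9 windows of the 7 genes, the half-site is in 2, ACGTG in 4, GCGTG in 7 and the E-box in 2. Windows of genes that did not pass the test are among them, that of Abhd5 with the half-site and GCGTG and both of Mgll with ACGTG and GCGTG, of which only that of the start at 88724412 holds the E-box. The direct repeat AGGTCANAGGTCA was in 0.0396% of all windows and in 0 of the 9. A match of letters is a description only and does not show binding.

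Pnpla2 lies on chromosome 7 from 141455198 to 141460743 on the plus strand. Its FPKM was 14.8, 15.5, 16.6 and 17.7 in WT samples 1 to 4 and 12.9, 14.9, 11.2 and 11.7 in MG53-TG samples 1 to 4. MG53-TG sample 2 was just above the lowest WT sample, and the other 3 MG53-TG samples were below all WT samples. The means were 16.2 ± 1.25 and 12.7 ± 1.64 FPKM (SD, n = 4 each), which makes a log2 fold change of -0.33 with an SE of 0.11 (limma adjusted p = 0.0407). The exact permutation test gave p = 0.0571. After scaling by median of ratios Pnpla2 was at -0.15 on the log2 scale (limma adjusted p = 0.221), and only 1 of the 8 fits that each left out a sample kept it past the threshold, the fit without MG53-TG sample 2. With MG53-TG samples 3 and 4 left out it was at -0.21 (limma adjusted p = 0.182), and at -0.46 (limma adjusted p = 0.00799) with samples 1 and 2 left out.

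Abhd5, whose product activates the lipase once it is free of perilipins, lies on chromosome 9 from 122351608 to 122381524 on the plus strand. It was at 4.68, 3.58, 3.81 and 3.75 FPKM in WT samples 1 to 4 against 3.57, 3.99, 2.73 and 3.61 FPKM in MG53-TG cultures 1 to 4. The groups overlapped, with means of 3.95 ± 0.492 and 3.47 ± 0.532 FPKM (SD, n = 4 each). The log2 fold change of -0.15 with an SE of 0.13 (limma adjusted p = 0.379) was within the spread between samples, and after scaling by median of ratios it was 0.0017.

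Hilpda encodes the hypoxia-inducible lipid droplet-associated protein, a small protein that binds and inhibits adipose triglyceride lipase. It lies on chromosome 6 from 29272488 to 29275446 on the plus strand. No row carried its identifier. Its start events stand under the neighbouring gene Fam71f2 in the files and were assigned to Hilpda by their exon boundary, so its values come from the fit with assignment by coordinates. They were 13.0, 15.8, 7.85 and 5.60 FPKM in WT samples 1 to 4 against 5.54, 4.44, 2.77 and 2.21 FPKM in MG53-TG cultures 1 to 4. The groups did not overlap, but WT sample 4 and MG53-TG sample 1 were nearly equal, and the WT samples varied more than for any other member. The means were 10.5 ± 4.65 and 3.74 ± 1.53 FPKM (SD, n = 4 each). The log2 fold change was -1.25 with an SE of 0.33 (limma adjusted p = 0.0154), with an exact permutation p of 0.0286, and the adjusted p stayed between 0.00908 and 0.0461 when each sample was left out in turn. With both MG53-TG samples 3 and 4 left out Hilpda was at -0.86 and did not pass (limma adjusted p = 0.133), and with samples 1 and 2 left out it was at -1.64 (limma adjusted p = 0.0115).

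Mgll lies on chromosome 6 from 88724412 to 88828360 on the plus strand and was the lowest of the 7 genes. Its FPKM was 2.08, 1.58, 2.19 and 1.80 in WT samples 1 to 4 and 0.267, 1.34, 1.35 and 1.65 in MG53-TG samples 1 to 4. MG53-TG sample 1 stood far below the others, and MG53-TG sample 4 was within the WT range. The means were 1.91 ± 0.277 and 1.15 ± 0.607 FPKM (SD, n = 4 each). The log2 fold change was -0.49 with an SE of 0.23 (limma adjusted p = 0.112) and the exact permutation p was 0.0571. Without MG53-TG sample 1 the log2 fold change of Mgll was -0.25.

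**Figure D2:**
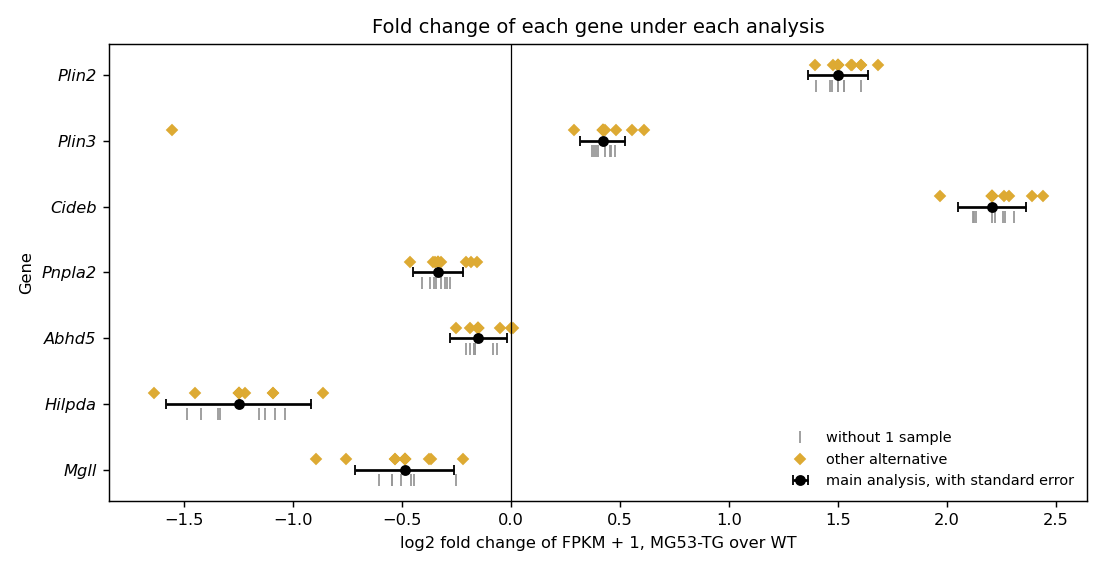
Log2 fold change of FPKM + 1, MG53-TG over WT, for each gene. Black points with bars are the main values with their standard errors, grey ticks the fits without 1 sample, and yellow diamonds the other alternatives. Cideb, Plin2 and Hilpda keep their side of 0 throughout, Abhd5 reaches 0, and the single diamond of Plin3 at -1.55 is the fit on end events, which were listed for this gene in 3 samples.

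The order of the 7 genes differed between the groups. In the WT samples Plin3 was highest at 31.6 FPKM, followed by Pnpla2, Plin2, Cideb and Hilpda between 16.2 and 10.5 FPKM, whose neighbours in this order overlapped, and then by Abhd5 at 3.95 and Mgll at 1.91 FPKM, each below its upper neighbour in all samples. In the MG53-TG samples Cideb was highest at 63.0 FPKM and above Plin3 in every sample. Plin3 and Plin2 overlapped at 42.8 and 42.3 FPKM, Pnpla2 came next at 12.7 FPKM, and Hilpda and Abhd5 overlapped at 3.74 and 3.47 FPKM. The WT mean of Plin3 was above that of 87.1% of the genes with a value in WT, and the WT mean of Mgll above that of 29.3%.

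Ratios between the genes within a sample do not depend on a factor by which all values of a sample are multiplied. The ratio of Plin2 to Plin3, the perilipin that needs lipid for its stability to the perilipin that does not, was 0.436, 0.438, 0.437 and 0.482 in WT samples 1 to 4. It was 1.36, 0.991, 0.956 and 0.718 in MG53-TG samples 1 to 4, so that the groups did not overlap. The mean log2 ratio was higher by 1.13 in MG53-TG, by 0.89 with MG53-TG samples 1 and 2 left out and by 1.38 with samples 3 and 4 left out. Plin2 was summed over its end events here and Plin3 over its start events, and with start events for both the difference was 1.20. The two-sided exact permutation p of 0.0286 became 0.114 when adjusted over the 4 ratios examined, and with 4 samples a group the adjusted p could fall under the threshold only if at least 3 of the 4 ratios reached the smallest p.

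The ratio of Hilpda to Pnpla2, the inhibitor to its lipase, was 0.874, 1.02, 0.472 and 0.317 in WT samples 1 to 4 and 0.430, 0.298, 0.248 and 0.189 in MG53-TG samples 1 to 4. WT sample 4 lay within the MG53-TG range. The mean log2 ratio was lower in MG53-TG, with a difference of -1.12, or -1.48 and -0.75 with MG53-TG samples 1 and 2 or 3 and 4 left out (exact permutation p = 0.0571, adjusted p = 0.114). The ratio of Abhd5 to Pnpla2, the activator to its lipase, was 0.247 ± 0.0462 in WT and 0.274 ± 0.0259 in MG53-TG (SD, n = 4 each), and the groups overlapped (adjusted exact permutation p = 0.381). The ratio of Mgll to Pnpla2, the last lipase of the pathway to the first, was 0.119 ± 0.0199 and 0.0930 ± 0.0525 (SD, n = 4 each, adjusted exact permutation p = 0.457). Its difference in mean log2 ratio was -0.65, and -0.031 without MG53-TG sample 1. It turned to 0.15 with MG53-TG samples 1 and 2 left out and was -1.45 with samples 3 and 4 left out.

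**Figure D3:**
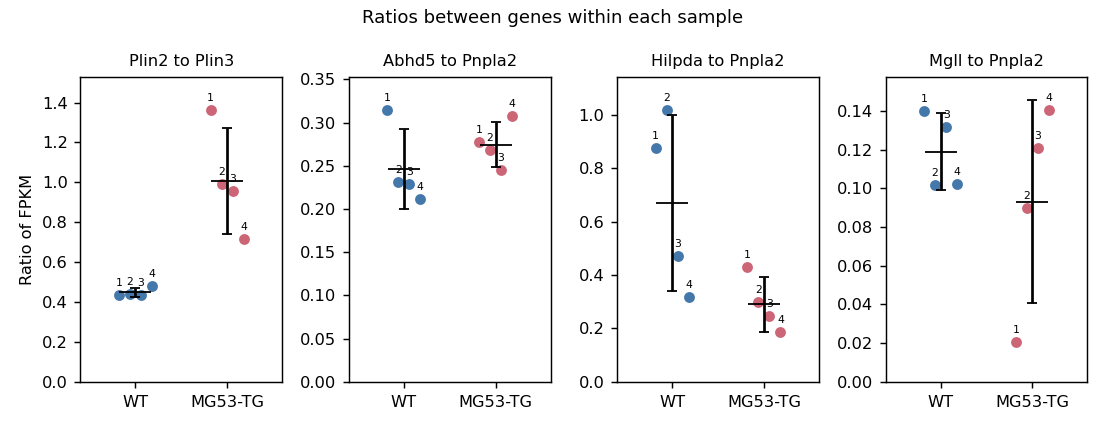
Ratio of FPKM between pairs of genes in each sample, with the mean and SD of each group (linear axes from 0). The MG53-TG samples lie between 0.718 and 1.36 for Plin2 to Plin3, above all WT samples, while the groups overlap in the other 3 ratios.

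Transcript events gave a further view of Plin2 and Mgll, the members with at least 2 start events of 5% or more of their start FPKM. Of the start FPKM of Plin2, the first exon at the 5′ end of the gene (86669945 to 86670060, untranslated) took 86.4% ± 4.52 in WT and 91.9% ± 7.88 in MG53-TG (SD, n = 4 each). This share did not differ beyond the spread between samples (exact permutation p = 0.257, adjusted over 2 genes p = 0.514). A 73-base exon of Plin2 (86658100 to 86658172), annotated only in the noncoding transcript Plin2-204, was listed in WT sample 1 and MG53-TG sample 1 alone, with 43.9% and 31.4% of the FPKM of the exon's events. The other 6 samples listed only transcripts that skip it.

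For Mgll, the exon at the 5′ end (88724412 to 88724571, untranslated) took 97.0%, 66.6%, 76.1% and 34.1% of start FPKM in WT samples 1 to 4 and 13.4%, 99.9%, 99.6% and 96.6% in MG53-TG samples 1 to 4. Samples of both groups were at either end of this range (exact permutation p = 0.629). The second start (88724596 to 88725178) was listed in WT samples 2, 3 and 4 at 0.522, 0.514 and 1.18 FPKM and in no MG53-TG sample. This contrast was singled out after the values were seen and has no test of its own. In MG53-TG sample 1, most of the low Mgll value came from a start in a later exon (88823130 to 88823406), at 0.231 FPKM. The 5′ end of Mgll overlaps the antisense gene Gm26588.

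Mgll also has a cassette exon of 84 bases, or 28 codons, in the coding sequence of transcript Mgll-202, at chr6:88813880-88813963 on the plus strand. It is shown, as GENCODE gives it for GRCm38, because its share differed widely among the WT samples.
Mgll exon 6 of Mgll-202: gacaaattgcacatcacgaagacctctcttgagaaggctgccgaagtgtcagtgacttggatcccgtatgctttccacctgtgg
Transcripts with this exon held 92.2%, 29.4%, 20.3% and 0.795% of the FPKM of its events in WT samples 1 to 4. In the MG53-TG samples they held 41.7% in sample 3 and were not listed in samples 2 and 4, and sample 1 listed neither form. At a total of 1.34 to 2.18 FPKM these shares rest on low values of unknown depth.

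**Figure D4:**
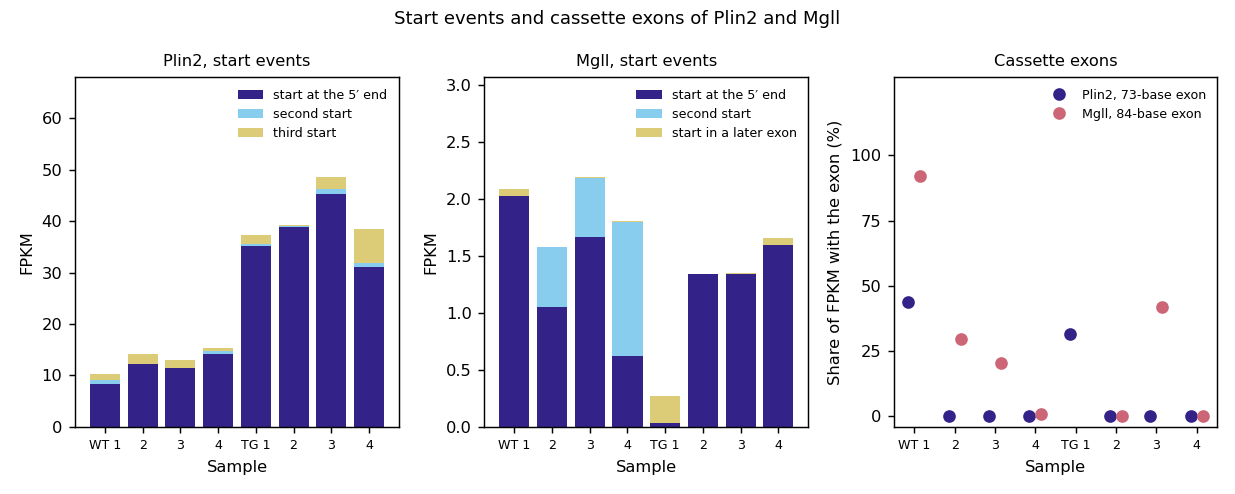
FPKM of each start event of Plin2 and Mgll by sample (stacked bars from 0) and the share of FPKM with the cassette exon of each gene (points, percent). The second start of Mgll appears only in WT samples 2 to 4, and the 73-base exon of Plin2 only in sample 1 of each group.

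The rest of the droplet and lipolysis genes were described from 3 lists of 38 genes in all, of which 31 had a value and 27 were tested. Of these, 13 passed as higher and 3 as lower, beside 15.7% and 29.3% of all 10707 genes tested, and their median log2 fold change was 0.41 against -0.17 for all genes. With median-of-ratios scaling or quantile normalization 17 passed as higher and 3 as lower, and with the former 20.7% of all genes passed as higher and 20.5% as lower. In either direction 59.3% of the listed genes passed, against 45.0% of all genes.

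Other coat genes were mostly low. Cidec, whose product FSP27 drives droplet fusion, went up from 4.19 ± 0.674 to 13.4 ± 1.34 FPKM (SD, n = 4 per group, log2 fold change 1.48, limma adjusted p = 4.40e-05). Cidea fell from 1.65 ± 0.117 to 0.269 ± 0.218 FPKM (log2 fold change -1.08, limma adjusted p = 0.000615). Plin1 and Plin5, the perilipins of adipose and oxidative tissue, were at or below 0.220 FPKM in all samples and under the filter, and Plin4 had no entry. The 3 CIDE genes therefore did not move together, with Cideb and Cidec higher and Cidea lower. Of the adipocyte markers, Lep and Plin4 had no entry and Adipoq, Cfd, Retn and Plin1 were under the filter. The adipocyte list summed to 9.09 to 14.1 FPKM in WT and 12.2 to 16.3 FPKM in MG53-TG samples, of which Cidec is a part, and Fabp4 fell from 7.13 to 1.30 FPKM, a mean of 3 MG53-TG samples since sample 1 had no entry and was treated as missing (log2 fold change -1.83, limma adjusted p = 0.000323).

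Of the other lipases, esterases and lipase inhibitors, 9 of 11 tested genes rose and 0 passed as lower, beside 15.7% and 29.3% of all genes, with a median log2 fold change of 1.83. Pnpla8, a phospholipase named after its values were seen, was at 4.56 FPKM in WT and 2.58 FPKM in MG53-TG (log2 fold change -0.59, limma adjusted p = 0.0533). Ces1f, a liver and intestinal ester hydrolase, went up from 1.91 ± 0.543 to 79.4 ± 40.5 FPKM (SD, n = 4 per group, log2 fold change 4.67, limma adjusted p = 1.81e-05), and Ces1d changed by 2.77 on the log2 scale (limma adjusted p = 0.00190). Ces2e, the most abundant gene of the list, rose from 99.9 ± 12.6 to 423 ± 126 FPKM (limma adjusted p = 0.000104), and Ces2c from 42.0 ± 4.50 to 236 ± 80.6 FPKM (limma adjusted p = 6.58e-05). Ces1e, named after its values were seen, had the smallest change of the 9, from 6.58 ± 1.15 to 11.5 ± 2.76 FPKM (log2 fold change 0.71, limma adjusted p = 0.0141). These esterases share sequence, so that reads may have been divided among them. G0s2, named after its values were seen because its product is another inhibitor of the Pnpla2 lipase, was under the filter, with mean FPKM of 0.172 in WT and 0.603 in MG53-TG.

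Among droplet formation and droplet-bound proteins 3 of 14 tested genes rose and 2 fell, beside 15.7% and 29.3% of all genes, with a median log2 fold change of 0.17. The count depended on the scaling, with 7 higher and 2 lower under median-of-ratios scaling (median 0.34), beside 20.7% and 20.5% of all genes, and under quantile normalization (median 0.33), beside 19.2% and 23.6% of all genes. The droplet-bound dehydrogenases Hsd17b11 and Hsd17b13 rose from 36.0 ± 2.63 to 184 ± 14.5 FPKM and from 57.1 ± 12.8 to 175 ± 29.8 FPKM (SD, n = 4 each), with log2 fold changes of 2.32 and 1.61 and limma adjusted p of 6.30e-07 and 0.000143. Nsdhl, a sterol synthesis enzyme that is also found on droplets, fell from 44.6 ± 4.03 to 19.5 ± 3.67 FPKM (log2 fold change -1.17, limma adjusted p = 0.000297). Bscl2, which encodes seipin, the organiser of droplet budding, fell from 82.2 ± 6.78 to 60.1 ± 7.99 FPKM (log2 fold change -0.45, limma adjusted p = 0.0122).

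**Figure D5:**
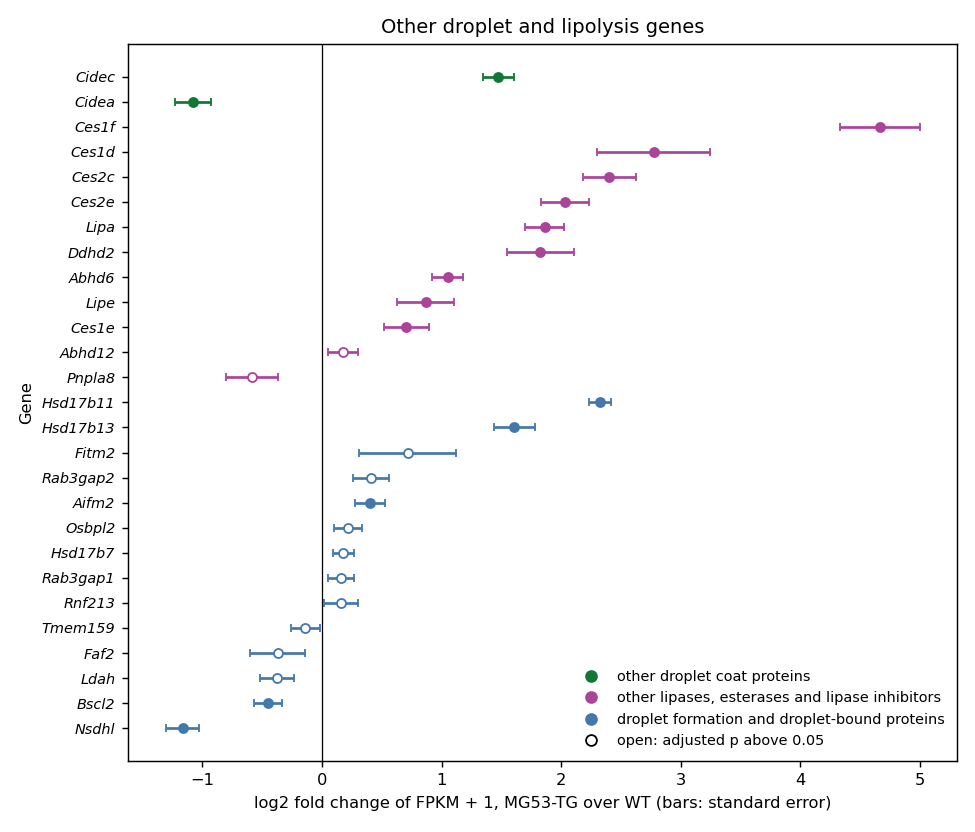
Log2 fold change of FPKM + 1, MG53-TG over WT, with its standard error, for the 27 tested genes of the 3 droplet and lipolysis lists. Filled points have a limma adjusted p of at most 0.05. Ces1f, at 4.67, lies furthest to the right and Nsdhl, at -1.17, furthest to the left.

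Lists of target genes were set beside the members, since Plin2 is a known target of PPARs and Hilpda of hypoxia-inducible factors. The lists do not assign a single factor to any of the 7 genes, and a link between a list and a member was not tested. Of the PPARα targets, 16 of 16 tested genes rose, against 15.7% of all genes tested, with a median log2 fold change of 1.21. With MG53-TG samples 3 and 4 left out 14 of them rose. The median of the PPARα targets was 1.36 with MG53-TG samples 1 and 2 left out and 1.15 with samples 3 and 4 left out. Plin2 was at 1.40 and 1.61 with the same samples left out. Fabp1 and Fabp2 are also on the enterocyte list. Fabp1, the fatty acid-binding protein of liver and intestine, was the most abundant and went up from 256 ± 38.9 to 5814 ± 361 FPKM (SD, n = 4 per group, log2 fold change 4.51, limma adjusted p = 6.90e-08). Creb3l3, a lipid-regulating transcription factor, changed by 3.92 on the log2 scale (limma adjusted p = 2.26e-06). Of the HIF targets, 10 of 14 tested genes fell and 1 rose, with a median log2 fold change of -0.76, beside 29.3% of all genes tested lower and 15.7% higher. With median-of-ratios scaling 7 fell and 1 rose, beside 20.5% of all genes lower and 20.7% higher. The median of the HIF targets was -0.57 with MG53-TG samples 1 and 2 left out, beside -0.245 for all genes. It was -0.97 with samples 3 and 4 left out, beside -0.096 for all genes. Hilpda was at -1.64 and -0.86 with the same samples left out. For both lists, the order of the 2 values was thus the reverse of that of the member set beside it, and the reason was not tested. Adm, which encodes adrenomedullin, fell from 13.6 ± 3.74 to 0.762 ± 0.116 FPKM (log2 fold change -3.01, limma adjusted p = 6.50e-06), and Pfkfb3, a regulator of glycolysis, changed by -2.72 on the log2 scale (limma adjusted p = 0.000227). Ndrg1, the gene that rose, changed by 0.39 on the log2 scale (limma adjusted p = 0.0482), and by 0.19 (limma adjusted p = 0.225) with quantile normalization, where 0 HIF targets rose. Eno1, the most abundant of the list, was at 1024 ± 268 and 991 ± 281 FPKM.

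The genes most like each member over the 8 samples were named by Pearson r of log2(FPKM + 1), as a description of samples that share the group difference. For Cideb these were Slc35f2, Gtf2b and Mttp, the last encoding the triglyceride transfer protein that loads lipoproteins, with r of 0.998 each when rounded. For Plin2 they were Hdac11, Rida and Gga2 (r of 0.991 to 0.995), and for Plin3 Lrrc39, Amn and Slco2b1 (0.985 to 0.990). For Pnpla2 they were Ngrn, Pa2g4 and a gene with no symbol in the files (0.984 to 0.992), and for Hilpda Ttll5, Noc3l and Chd1 (0.973 to 0.980).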

How the data were processed

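Total RNA of intestinal crypt organoids was sequenced from 4 WT and 4 MG53-TG samples, grouped by the genotype in the labels. Per the methods and the submitters' processing notes, the authors trimmed reads with Cutadapt 1.9.1 and mapped them to mm10 with HISAT2 2.0.1, and the notes also list HTSeq 0.6.1 and DESeq2. The deposited values are FPKM per transcript event and sample, of 20 event types and 123166 events. The tool that made the event tables is not given in the sources used here. With a smallest FPKM of 1e-06 the values are estimates, so that the depth is unknown and intervals that need it were left out.

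Rows were grouped by the gene identifier of the files, duplicate rows of an event were used once, and a gene took the sum of its start or end events, whichever mean was higher. A gene absent from a sample was set to missing where the median of its group's remaining samples reached 0.5 FPKM, and to 0 elsewhere. Since Hilpda has no rows under its own identifier, it was taken from an alternative in which events go to the gene whose exon boundary (GENCODE, GRCm38) they match, which moved 3.99% of start and end events. Values of log2(FPKM + 1) were compared with limma 3.58.1 (lmFit, eBayes, trend) under R 4.3.3. Genes averaging 0.5 FPKM or more were tested (10707), p-values were adjusted by Benjamini-Hochberg, and 0.05 was the threshold. The log2(FPKM + 1) scale understates changes of low genes. Group means are of FPKM. Single genes, ratios and start shares were compared by two-sided exact permutation over 70 relabellings. The fit was tested on simulated data.

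Genes named by rule were the 7 members, at most 4 per list (largest changes among those passing, and the most abundant) and, for each member that passed, the 3 with the highest Pearson r among genes averaging 2 FPKM or more. Further genes were named as absent, low or overlapping, or after their values were seen. The members, lists and tests were chosen with earlier results of these data known. The alternatives were a pseudocount of 0.1, no filter, a filter at 2 FPKM, quantile normalization, median-of-ratios scaling, the replicate number as a block, absent values as 0, start events only, end events only, the highest single event, assignment by coordinates, and leaving out each sample. Leaving out MG53-TG samples 1 and 2, or 3 and 4, was added after seeing the data. Promoters of all 7 genes (9 windows) were taken from RefSeq. Python 3.11.15 was used for the rest.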

Additional observations from a re-analysis of the deposited data

Results flagged for a closer look

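The ratio of Plin2 to Plin3 in WT sample 4 was 0.482, whereas the other 3 WT samples lay between 0.436 and 0.438, so its gap to the nearest sample was large for the range of its group. Of 22 groups of 4 values examined for the 7 genes and the 4 ratios, this was the only sample that stood apart by this measure, and chance gives about 1 in 20 such groups (1.1 of 22). The ratio of WT sample 4 was still below that of every MG53-TG sample, the lowest of which was 0.718. In this ratio Plin2 was summed over end events and Plin3 over start events. At the main start event of Plin2, WT samples 1 to 4 were at 8.33, 12.2, 11.3 and 14.1 FPKM. The flag therefore holds for the sums used, and ratios of start events alone were not examined for such samples.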

How the results depend on the processing

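Plin2, Cideb and Hilpda kept their direction and passed the threshold in all the alternatives that could be run for them, except Hilpda without MG53-TG samples 3 and 4, including the 8 that each left out a sample (1.40 to 1.61, 2.12 to 2.31 and -1.49 to -1.04 on the log2 scale). Plin3 did so in the 8 fits without a sample (0.37 to 0.48) and in 10 of 11 other settings with all samples. On end events only its log2 fold change was -1.55 (limma adjusted p = 0.148), where its end event was listed in 3 samples. Pnpla2 lost its call with median-of-ratios scaling (-0.15), with quantile normalization (-0.18) and in 7 of the 8 fits without a sample, which ranged from -0.41 to -0.28. Abhd5 turned to 0.0017 and 0.012 under these scalings, and ranged from -0.20 to -0.0645 in the fits without a sample. Mgll did not pass in any alternative (-0.89 to -0.36 in full sets of samples, and -0.60 to -0.25 without a sample), and it had no value at a mean of at least 2 FPKM. Hilpda had no end events. The number of genes called was 3860 to 5095 when leaving out a sample and 3633 to 4931 in the other settings with all samples. Leaving out MG53-TG samples 1 and 2, or 3 and 4, was chosen after seeing the data and gave 5802 and 3806 genes. Plin2, Cideb and Plin3 passed in both, and without samples 3 and 4 Pnpla2 (-0.21, limma adjusted p = 0.182) and Hilpda (-0.86, limma adjusted p = 0.133) lost their calls. Without samples 1 and 2 Mgll was at -0.22. Scaling moved the share of higher calls from 34.9% to 50.2% (median-of-ratios) or 44.9% (quantile). Deviations of same-numbered samples from their group means were nearly uncorrelated across genes (-0.040 to 0.096). This cannot decide whether the numbers pair the samples, since the MG53-TG deviations also hold the difference between samples 1 and 2 and samples 3 and 4. For marker genes of the crypt organoid transcriptome the study names a paired t test. With the replicate number as a block 4390 genes were called, and Pnpla2 was at -0.33 (limma adjusted p = 0.0883). Hilpda stayed at -1.25, with a limma adjusted p of 0.00255 in place of 0.0154. The block changed no other call of the 7 genes. Depth is unknown, so low values such as those of Mgll carry no counting error here.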
